A study of Mus musculus with 12 samples.

Results

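A set of 9 genes that mark or specify upper-layer projection neurons of the cerebral cortex was followed through a knockdown of ZNF335, a zinc finger protein encoded by Zfp335 in the mouse. The genes were Cux1, Cux2, Pou3f2, Pou3f3, Mef2c, Rorb, Lmo4, Bhlhe22 and Unc5d. They were measured by every probe set, a group of short array probes read together as 1 value, that the platform annotation assigned to 1 of these genes alone. That rule gave 27 of 45101 probe sets, for 8 of the 9 genes: 9 for Cux1, 5 for Mef2c, 3 each for Cux2, Pou3f2 and Rorb, 2 for Pou3f3, and 1 each for Lmo4 and Unc5d. Bhlhe22 had no probe set in the annotation used and was not analysed here. A further probe set, assigned both to Pou3f3 and to 2900092D14Rik, was left out of all counts.

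The 12 arrays held RNA from C57BL/6 mouse cells in 4 groups of 3: ZNF335 knockdown at 5 days, control knockdown at 5 days, ZNF335 knockdown at 1 day and control knockdown at 1 day. The knockdown dated from embryonic day 14.5, and all samples carried the same developmental stage, embryonic day 15.5, and the same harvest stage, postnatal day 0, so neither label separates the time points. Short hairpin RNA and a fluorescence-activated sort appear in the design text, siRNA in the titles. The labels name neither the tissue nor the marker of the sort. Whether the 3 arrays of a group stand for different animals or cultures is not stated, and p-values cover only the scatter of these arrays, which could be technical. Titles and source names set the groups; the descriptions of the 6 samples at 5 days name the opposite group.

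Upper-layer neurons fill layers II to IV of the cortex, are born late in neurogenesis from radial glia and intermediate progenitors, and send their axons mainly to other cortical areas, many through the corpus callosum. The homeodomain factors Cux1 and Cux2 mark these layers and shape dendrites and spines. The POU factors Pou3f2 and Pou3f3, also called Brn2 and Brn1, act together in the production and migration of these neurons. Mef2c, Rorb, Lmo4 and Bhlhe22 take part in the maturation, layer and area identity of postmitotic neurons, and Unc5d is a guidance receptor of the netrin receptor family expressed by migrating upper-layer neurons.

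For the genes whose levels are described most closely below, the 250 bases before a RefSeq transcription start (assembly GRCm38.p6) are shown, 5′ to 3′ on the gene's strand. Capitals mark CCAAT on either strand, the letters after which the Cux1 product, the CCAAT displacement protein, was named. The Cux2 window lies at chr5:122049852-122050101 on the minus strand, the Mef2c window at chr13:83503784-83504033 on the plus strand, the Pou3f2 window at chr4:22488367-22488616 on the minus strand and the Pou3f3 window at chr1:42695518-42695767 on the plus strand.
Cux2: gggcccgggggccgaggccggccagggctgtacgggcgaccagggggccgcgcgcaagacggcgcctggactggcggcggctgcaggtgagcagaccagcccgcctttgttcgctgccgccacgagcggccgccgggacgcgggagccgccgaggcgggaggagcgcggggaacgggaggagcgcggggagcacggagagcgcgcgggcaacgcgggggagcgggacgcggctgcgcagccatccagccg
Mef2c: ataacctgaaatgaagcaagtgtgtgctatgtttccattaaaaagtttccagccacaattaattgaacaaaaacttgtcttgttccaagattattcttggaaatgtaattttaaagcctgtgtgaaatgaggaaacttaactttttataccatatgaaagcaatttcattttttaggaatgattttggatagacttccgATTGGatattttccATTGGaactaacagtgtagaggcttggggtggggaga
Pou3f2: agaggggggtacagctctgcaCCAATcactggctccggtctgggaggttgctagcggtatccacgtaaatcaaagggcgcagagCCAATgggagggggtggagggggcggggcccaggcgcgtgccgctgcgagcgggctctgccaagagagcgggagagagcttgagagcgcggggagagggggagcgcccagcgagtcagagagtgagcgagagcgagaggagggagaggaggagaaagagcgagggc
Pou3f3: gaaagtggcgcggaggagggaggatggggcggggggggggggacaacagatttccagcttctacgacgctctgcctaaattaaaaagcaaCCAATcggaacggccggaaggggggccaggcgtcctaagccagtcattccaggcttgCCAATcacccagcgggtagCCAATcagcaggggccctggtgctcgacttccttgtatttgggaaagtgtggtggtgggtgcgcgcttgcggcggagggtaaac
Pou3f3 held 3 matches, Pou3f2 and this start of Mef2c 2 each and Cux2 0. Promoter windows were given for 7 of the 9 genes, 13 windows in all, and 5 of the 13 held CCAAT, against 33.8% of all 32851 mouse windows of the same length. Of the other motifs searched on both strands, the octamer ATGCAAAT bound by POU factors was in 0 of the 13 windows against 1.6% of all, the nuclear receptor motif AGGTCA in 2 against 14.0%, the E-box CATATG in 1 against 3.46%, and the GC box GGGCGG in 7 against 32.7%. The left part of the RE1 motif, TTCAGCACC, was in 0 windows against 0.301% of all. The GC box count takes in every Lmo4 window, and the Lmo4 windows at chr3:144202397-144202646 and chr3:144202333-144202582 overlap. No motif searched contains another, and a match is a description of letters, not a site.

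Values are log2 of the quantile-normalized intensity plus 16, which understates the fold change of dim probe sets. The hybridisation control probe sets, which read RNA added to every array, split the 1-day arrays into a strong set, knockdowns 2 and 3 and control 2 (mean log2 12.67 to 12.82), and a weak set, knockdown 1 and controls 1 and 3 (10.81 to 11.81). These 2 sets of arrays had no overlap for 75.2% of the probe sets kept after the filter on low values. Array knockdown 2 at 5 days had an Actb 3′ to 5′ signal ratio of 8.76, against 1.51 to 2.91 on the other arrays. This ratio is higher in degraded RNA. At 1 day the fluidics stations followed the groups, and the chip lots followed the time points. Station and knockdown at 1 day, and chip lot and time, therefore cannot be told apart. At 5 days the 3 knockdown arrays and control 1 shared 1 scanner and station, controls 2 and 3 another station and the scanner on which every 1-day array was read. In knockdown cells scanner and time therefore cannot be told apart, and a fit with the scanner as a block takes its scanner term from control 1 against controls 2 and 3.

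The targeted gene gave no check of the knockdown. The Zfp335 probe set (1453039_at) read log2 6.999, 5.60 and 7.25 in knockdown cells and 6.71, 7.41 and 7.64 in control cells at 5 days. The 1-day arrays gave 7.78, 5.73 and 5.45 in knockdown cells and 7.79, 5.59 and 7.51 in control cells. Knockdown arrays were on average lower by a log2 change of -0.64 at both times (limma, adjusted p = 1.00 at 5 days and 0.832 at 1 day), the groups overlapped, and the change did not pass the threshold of an adjusted p of 0.05.

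The first comparison asks whether upper-layer genes differed between ZNF335 knockdown and control cells. None of the 24 member probe sets that passed the filter on low values changed past the threshold, at 5 days or at 1 day, by limma with Benjamini-Hochberg adjustment over 27022 probe sets. The background was equally empty: 0.0% of all kept probe sets passed at each time, while 34 at 5 days and 120 at 1 day had an unadjusted p under 0.05, none of them a member. At 5 days 9 member probe sets lay above and 15 below their controls, with a median log2 change of -0.082 and a range of -0.56 to 0.51. At 1 day 12 lay above and 12 below, with a median of -0.0043 and a range of -0.84 to 0.76. Over all kept probe sets the median was -0.0063 at 5 days and -0.098 at 1 day. The plot of knockdown minus control shows that every interval includes 0.

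**Figure D1:**
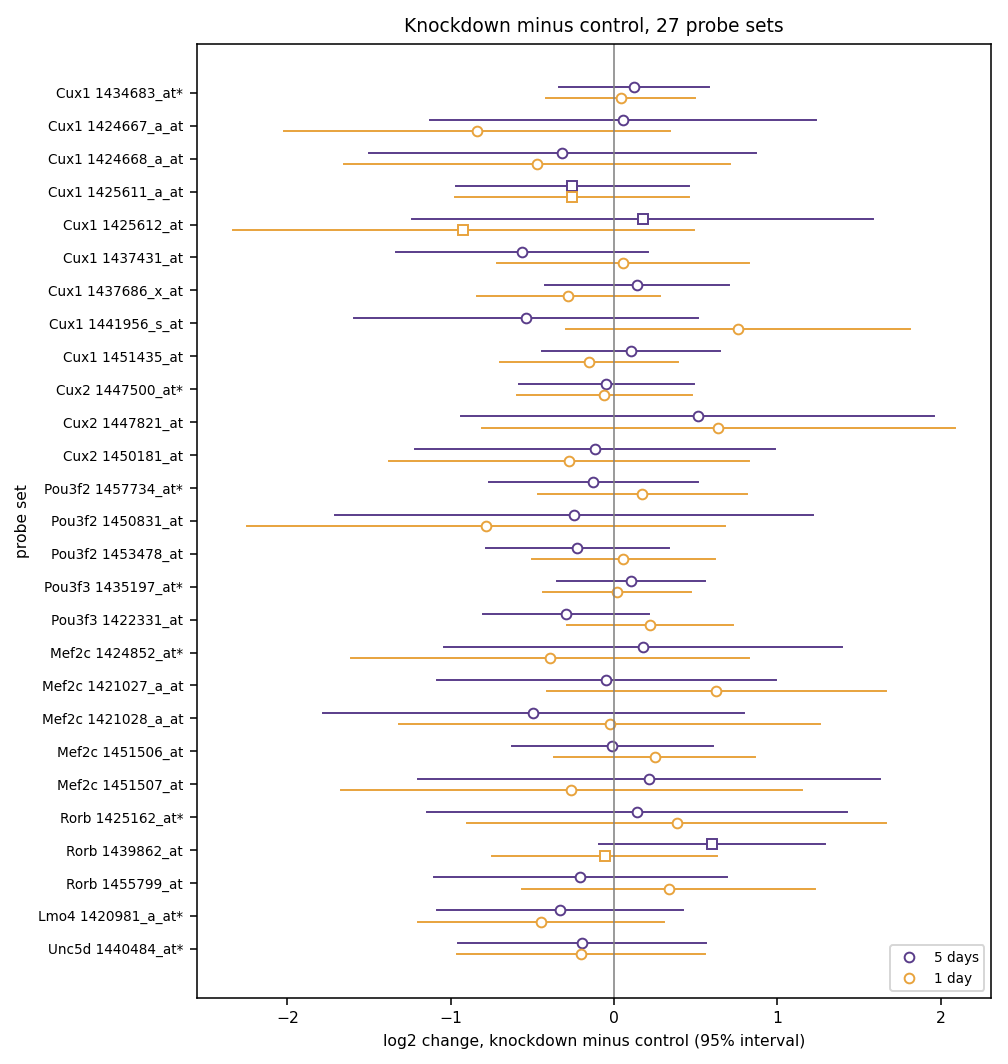
Log2 change, knockdown minus control, for the 27 upper-layer probe sets (rows) at 5 days and at 1 day, with 95% intervals from limma not adjusted for multiple testing. Asterisks mark the brightest probe set of a gene, squares the 3 probe sets below the filter (from the fit without it), and open symbols values that did not pass the threshold, which here are all of them.

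Cux2, a marker of layers II to IV, differed between the cell groups by less than its spread. Its brightest probe set (1447500_at) read 12.02, 12.40 and 12.33 in knockdown cells and 12.20, 12.40 and 12.29 in control cells at 5 days. Arrays at 1 day gave 11.11, 10.25 and 10.54 in knockdown cells and 10.79, 10.65 and 10.65 in control cells. The 2 groups overlapped at each time, and the knockdown arrays spread more widely than the controls. The log2 change was -0.047 ± 0.24 (SE, 95% interval -0.58 to 0.49) at 5 days and -0.061 ± 0.24 (-0.60 to 0.48) at 1 day, so intervals not adjusted for multiple testing reached at most 1.498-fold and 1.51-fold in either direction.

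Cux1, its paralog, gave a similarly narrow interval with its brightest probe set (1434683_at). That probe set read 10.98, 11.26 and 11.14 in knockdown cells and 10.93, 11.06 and 11.02 in control cells at 5 days. It read 10.58, 10.63 and 10.52 in knockdown cells and 10.44, 10.28 and 10.89 in control cells at 1 day. The groups overlapped at both times, and the log2 change was 0.12 ± 0.21 at 5 days and 0.04 ± 0.21 at 1 day (SE, n = 3 each). The 7 kept Cux1 probe sets disagreed in sign at 1 day, from -0.84 for 1424667_a_at to 0.76 for 1441956_s_at, neither past the threshold.

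The POU factors were the only kept members with a probe set whose 3 knockdown arrays all lay on 1 side of the 3 controls, and only at 5 days. For Pou3f3, 1422331_at read 7.58, 7.37 and 7.71 in knockdown cells and 7.79, 7.97 and 7.79 in control cells, a log2 change of -0.29 ± 0.23. For Pou3f2, 1453478_at read 10.72, 10.89 and 10.76 in knockdown cells and 11.00, 11.12 and 10.92 in control cells, a log2 change of -0.22 ± 0.25. Each had an exact two-sided permutation p of 0.1, the smallest that 3 against 3 arrays allow, and a limma adjusted p of 1.00. Here 2 of 24 had groups without overlap at 5 days, against 3.01% of all probe sets kept, and 0 of 24 at 1 day, against 1.67%.

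The brighter probe sets of the same genes gave overlapping groups. For Pou3f3, 1435197_at read 12.55, 13.06 and 12.90 in knockdown cells and 12.80, 12.77 and 12.62 in control cells at 5 days, and 12.12, 12.30 and 12.36 in knockdown cells and 12.05, 12.33 and 12.35 in control cells at 1 day. For Pou3f2, 1457734_at read 11.46, 11.84 and 11.49 in knockdown cells and 11.80, 11.86 and 11.51 in control cells at 5 days, and 11.21, 11.61 and 11.51 in knockdown cells and 10.61, 11.59 and 11.60 in control cells at 1 day. The 2 probe sets of Pou3f3 thus differed in sign at 5 days, 0.10 for the brighter against -0.29 for the dimmer.

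Rorb, an orphan nuclear receptor of layer IV, had 1 probe set whose groups did not overlap at 5 days. That probe set, 1439862_at, lay below the filter and read 7.92, 7.54 and 8.11 in knockdown cells and 7.23, 7.09 and 7.45 in control cells at 5 days. The 1-day arrays gave 5.58, 4.66 and 4.97 in knockdown cells and 5.64, 4.82 and 4.93 in control cells. Its knockdown arrays were all above the controls at 5 days and overlapped them at 1 day. In the fit without the filter the change at 5 days was 0.60 ± 0.31 (95% interval -0.09 to 1.29, adjusted p = 1.00, exact permutation p = 0.1), and 2.32% of all 45037 probe sets were higher without overlap in that comparison. The other Rorb probe sets did not move with it at 5 days: 1425162_at differed by 0.14 ± 0.58 and 1455799_at by -0.21 ± 0.40.

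Mef2c, Lmo4 and Unc5d had wider intervals. For the brightest Mef2c probe set (1424852_at), a MADS-box factor of maturing neurons, the change was 0.18 ± 0.55 at 5 days and -0.39 ± 0.55 at 1 day, with intervals that reached 2.63-fold and 3.06-fold. Lmo4, a LIM-only adaptor of callosal neurons, differed by -0.33 ± 0.34 at 5 days and -0.45 ± 0.34 at 1 day. Unc5d differed by -0.20 ± 0.34 at both times. The 1-day groups hold arrays of both hybridisation sets in unequal numbers. The strong set has knockdowns 2 and 3 and control 2, the weak set knockdown 1 and controls 1 and 3. Knockdown minus control had opposite signs in the strong and the weak set for 20 of the 24 kept member probe sets. Each such difference has a single array on one side. The share over all kept probe sets was not computed, so the count is not read as a trait of the members.

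The test of whether the knockdown effect differed between 5 days and 1 day also called 0 of 24 member probe sets and 0.0% of all kept ones, with 55 of all and 0 of the members at an unadjusted p under 0.05. Member differences of the 2 effects ran from -1.30 to 0.89 with a median of 0.01.

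The second comparison asks how the same genes stood at 5 days against 1 day after knockdown. Cux2 and Mef2c rose in both cell groups, and Lmo4 and 1 probe set of Cux1 passed the threshold in knockdown cells. In knockdown cells 6 of the 24 member probe sets rose and 0 fell, against 5.98% of all kept probe sets called in either direction and 4.05% called higher. In control cells 3 of 24 rose and 0 fell, against 3.28% called in either direction and 2.02% called higher. The median log2 change over the member probe sets was 0.67 in knockdown cells and 0.59 in control cells, against 0.06 in knockdown cells and 0.0028 in control cells over all kept probe sets. The test of the difference between the knockdown effects, given above, is also the test of whether the change between the times differed between the cell groups, and it called 0 members. The plot of the change between time points shows the called values as filled symbols.

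**Figure D2:**
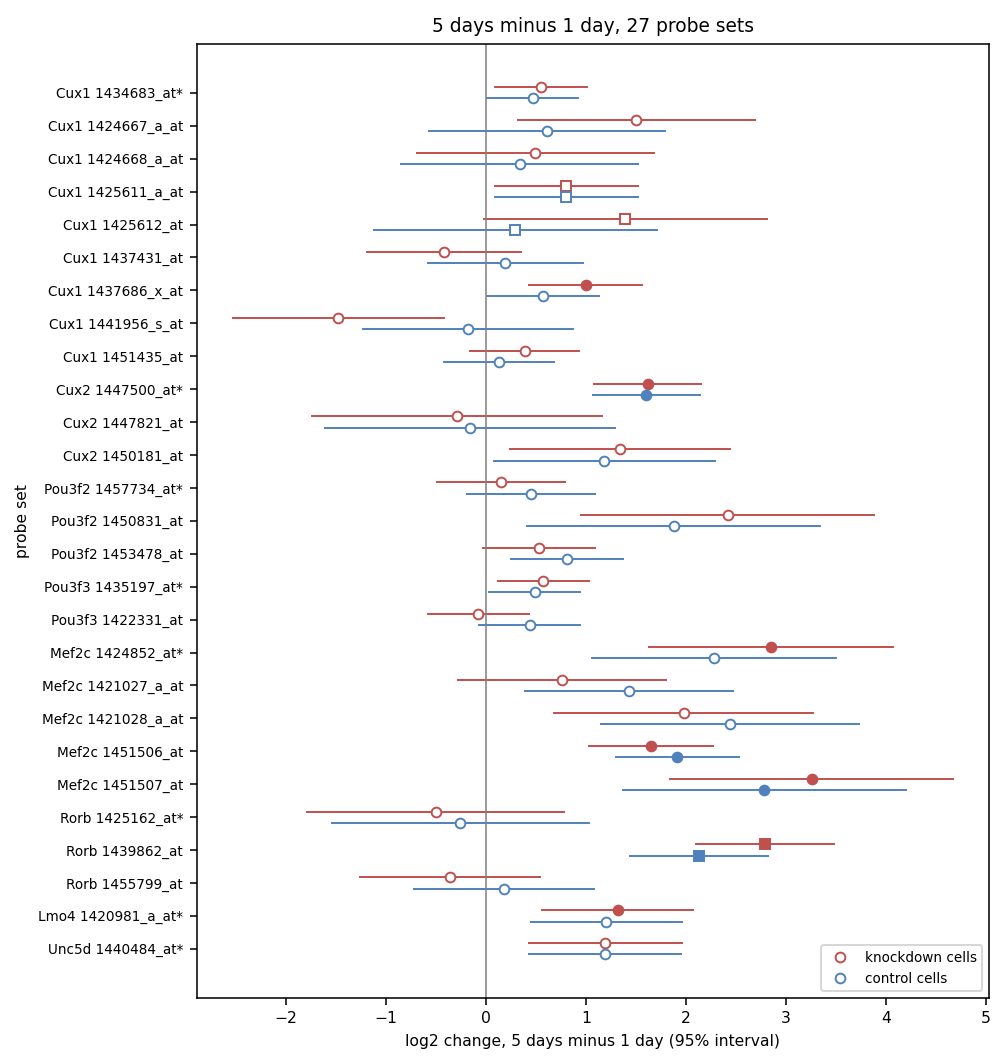
Log2 change, 5 days minus 1 day, for the 27 upper-layer probe sets (rows) in knockdown and in control cells, with unadjusted 95% intervals from limma. Filled symbols passed the adjusted threshold, squares are the 3 probe sets below the filter, and asterisks mark the brightest probe set of a gene. Values reach 3.26 in knockdown cells and 2.78 in control cells, both for Mef2c.

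Those counts depend on how the arrays are brought to 1 scale. With each array scaled to a common median, the median of all probe sets itself moved by 0.73 in knockdown cells and 0.72 in control cells, 9785 probe sets were called higher and 537 lower in knockdown cells, and 8913 higher and 341 lower in control cells. Without normalization the shift was 0.87 in both, with 13117 higher and 391 lower in knockdown cells and 12860 higher and 262 lower in control cells. With quantile normalization the split was 1094 higher and 522 lower in knockdown cells and 547 higher and 339 lower in control cells. The member medians were 1.82 in knockdown cells and 1.73 in control cells with median scaling, and 1.96 in knockdown cells and 1.88 in control cells without normalization. Both lay above the shift of all probe sets, but that shift is a median over dim and bright probe sets alike. Mean array intensity before normalization was 264.6 to 322.5 at 1 day and 549 to 652 at 5 days. Array medians were 85.1 to 123.6 at 1 day and 94.8 to 147.0 at 5 days. Members were not compared with probe sets of like brightness, so these medians do not show a rise of their own.

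For Cux2, the values of 1447500_at given above lay between 12.02 and 12.40 on the 5-day knockdown arrays and between 10.25 and 11.11 on the 1-day knockdown arrays. In control cells they lay between 12.20 and 12.40 at 5 days and between 10.65 and 10.79 at 1 day. No 5-day array overlapped a 1-day array. The rise was 1.62 ± 0.24 in knockdown cells (limma adjusted p = 0.00554), a 3.07-fold difference, and 1.60 ± 0.24 in control cells (adjusted p = 0.00668), a 3.04-fold difference. The call held without each array in turn in both cell groups. It was lost in knockdown cells when the scanner was a block, a term that rests on 5-day control 1 (1.76, adjusted p = 0.487), when only the 6 knockdown arrays were fitted (1.62, adjusted p = 0.133) and when only 1-day arrays of the weak hybridisation set were used, which left 1 knockdown array assumed to vary like the other groups (1.14, adjusted p = 0.118). With the mean of the kept probe sets of Cux2 in place of this one, it was lost in both cell groups, at 0.89 in knockdown cells (adjusted p = 0.0504) and 0.88 in control cells (adjusted p = 0.0722).

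The other Cux2 probe sets were dimmer. 1450181_at read 8.13, 9.13 and 8.63 in knockdown cells and 8.46, 8.93 and 8.87 in control cells at 5 days. It read 8.27, 6.75 and 6.85 in knockdown cells and 7.99, 6.61 and 8.10 in control cells at 1 day. Its change was 1.34 ± 0.50 in knockdown cells, where knockdown 1 at 1 day overlapped the 5-day arrays, (adjusted p = 0.131), and 1.18 ± 0.50 in control cells (adjusted p = 0.255). 1447821_at did not move with the others, at -0.29 ± 0.65 in knockdown cells and -0.16 ± 0.65 in control cells, and its 1-day arrays split by hybridisation set, 8.46 to 8.91 in the strong set and 6.80 to 7.21 in the weak set.

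Mef2c showed the largest changes of the group. Its brightest probe set (1424852_at) read 12.002, 12.65 and 11.49 in knockdown cells and 11.90, 11.68 and 12.03 in control cells at 5 days. At 1 day it read 10.44, 8.85 and 8.32 in knockdown cells and 10.46, 9.15 and 9.18 in control cells. All 5-day arrays lay above all 1-day arrays, and on the 1-day side array 1 of each group stood above the other 2. The change was 2.85 ± 0.55 in knockdown cells (adjusted p = 0.0186), a 7.19-fold rise, and 2.28 ± 0.55 in control cells, which did not pass (adjusted p = 0.0528).

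Another Mef2c probe set, 1451507_at, passed in both cell groups. It read 11.32, 11.75 and 10.72 in knockdown cells and 11.10, 10.96 and 11.10 in control cells at 5 days. Arrays at 1 day gave 9.48, 7.69 and 6.85 in knockdown cells and 9.32, 7.54 and 7.96 in control cells. The rise was 3.26 ± 0.64 in knockdown cells (adjusted p = 0.0193) and 2.78 ± 0.64 in control cells (adjusted p = 0.0440), again with no overlap between the times.

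Mef2c 1451506_at spread least of these 3. It read 11.33, 11.48 and 10.90 in knockdown cells and 11.24, 11.31 and 11.19 in control cells at 5 days. At 1 day it read 9.51, 9.83 and 9.41 in knockdown cells and 9.56, 9.69 and 8.76 in control cells. The rise was 1.65 ± 0.28 in knockdown cells (adjusted p = 0.0103) and 1.91 ± 0.28 in control cells (adjusted p = 0.00542). This call held without each array in turn, except in knockdown cells without 1-day knockdown 3 (1.57, adjusted p = 0.05753). The remaining Mef2c probe sets were above their 1-day values on every 5-day array of the same cell group but did not pass: 1421028_a_at changed by 1.98 ± 0.58 in knockdown cells and 2.44 ± 0.58 in control cells, and 1421027_a_at by 0.76 ± 0.47 in knockdown cells and 1.43 ± 0.47 in control cells.

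Microglia, endothelium and interneurons also express Mef2c, and the levels of their markers are given beside it. Of 10 microglial markers, 9 passed the filter (not Trem2). The summed normalized intensity of all 10 was 1592 to 19843 in knockdown cells and 2025 to 11243 in control cells at 5 days. At 1 day it was 249 to 1699 in knockdown cells and 322 to 2717 in control cells. Of 10 endothelial and pericyte markers, 9 were kept (not Tie1). All 10 of them summed to 1814 to 19906 in knockdown cells and 1568 to 13173 in control cells at 5 days. The sums at 1 day were 1863 to 2260 in knockdown cells and 1532 to 2460 in control cells. All 10 markers of GABAergic interneurons summed to 5687 to 9768 in knockdown cells and 8420 to 8776 in control cells at 5 days, against 951 to 2143 in knockdown cells and 977 to 1538 in control cells at 1 day, and 4 of them in knockdown cells and 6 in control cells rose past the threshold. No marker was listed at 0 on any array. The 5-day arrays with the highest microglial and endothelial sums, knockdown 1 and control 1, had Mef2c 1424852_at values of 12.002 and 11.90, within the range of the other 5-day arrays. Their values on 1451507_at and 1451506_at also lay within that range. On 1421027_a_at knockdown 1 read 10.82, above 10.08 to 10.64 on the other 5-day arrays, which include control 1 at 10.45. On 1421028_a_at it read 10.03, above 8.41 to 9.91 on the others, which include control 1 at 9.46. Within the 1-day groups the Mef2c probe sets stood differently beside the microglial sums. The sums were 1699, 281 and 249 in knockdown cells and 2674, 322 and 2717 in control cells. Mef2c 1451507_at read 9.48, 7.69 and 6.85 in knockdown cells and 9.32, 7.54 and 7.96 in control cells. The 3 arrays with the high sums, knockdown 1 and controls 1 and 3, are also those of the weak hybridisation set. They lay above the other 1-day arrays on 1451507_at and on 1424852_at (9.18 to 10.46 against 8.32 to 9.15). On 1421027_a_at they lay below the other 1-day arrays (8.075 to 9.09 against 10.005 to 10.09). They overlapped the other 1-day arrays on 1421028_a_at (5.95 to 7.94 against 6.89 to 8.13) and on 1451506_at (8.76 to 9.56 against 9.41 to 9.83). The part of these cell types in the Mef2c values was not tested. In RNA from many cells, a different share of a cell type and a different amount of RNA per cell cannot be told apart.

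Lmo4 and Unc5d followed the same direction with less margin. Lmo4 (1420981_a_at) read 9.38, 8.80 and 9.21 in knockdown cells and 9.34, 9.62 and 9.42 in control cells at 5 days. In the 1-day arrays it read 8.57, 7.50 and 7.37 in knockdown cells and 8.70, 8.05 and 8.02 in control cells. The times did not overlap in either cell group, and the rise in knockdown cells was 1.32 ± 0.34 (adjusted p = 0.0494), while 1.20 ± 0.34 in control cells did not pass (adjusted p = 0.0916).

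Unc5d (1440484_at) read 10.30, 10.82 and 10.89 in knockdown cells and 10.81, 11.11 and 10.69 in control cells at 5 days. In the 1-day arrays it read 10.16, 8.82 and 9.44 in knockdown cells and 9.73, 9.32 and 9.97 in control cells. Its groups did not overlap between the times, and changes of 1.20 ± 0.34 in knockdown cells (adjusted p = 0.0665) and 1.19 ± 0.34 in control cells (adjusted p = 0.0970) did not pass.

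Of the Cux1 probe sets, 1437686_x_at passed in knockdown cells. It read 8.57, 8.89 and 8.75 in knockdown cells and 8.32, 8.66 and 8.81 in control cells at 5 days, and 7.89, 7.47 and 7.86 in knockdown cells and 7.80, 7.79 and 8.47 in control cells at 1 day. The change was 1.00 ± 0.25 in knockdown cells (adjusted p = 0.0468) and 0.58 ± 0.25 in control cells (adjusted p = 0.277). The brightest Cux1 probe set changed by 0.55 ± 0.21 in knockdown cells (adjusted p = 0.134) and 0.47 ± 0.21 in control cells (adjusted p = 0.278). Probe set 1441956_s_at lay lower at 5 days in knockdown cells, with 7.11, 6.54 and 7.68 on the 5-day arrays, all below 7.95, 8.91 and 8.90 on the 1-day arrays, and did not pass (-1.47 ± 0.48, adjusted p = 0.0924). Its 1-day values of 8.90 to 8.92 came from the strong hybridisation set and those of 7.14 to 7.95 from the weak set.

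The calls of Mef2c 1424852_at and 1451507_at, Lmo4 and Cux1 1437686_x_at did not hold without each array in turn. That of Cux1 1437686_x_at in knockdown cells held in 1 of the 6 fits without an array. Without 5-day knockdown 2, the array with the high Actb ratio, the change in knockdown cells was 2.54 for Mef2c 1424852_at (adjusted p = 0.0619), 3.01 for 1451507_at (adjusted p = 0.0646), 1.48 for Lmo4 (adjusted p = 0.0713) and 0.92 for Cux1 1437686_x_at (adjusted p = 0.110), while Cux2 1447500_at (1.54, adjusted p = 0.0196) and Mef2c 1451506_at (1.53, adjusted p = 0.0339) still passed. In control cells the 1451507_at call was lost without any 1 of 5 of the 6 arrays, with adjusted p between 0.125 and 0.164. Its change was then between 2.41 and 2.83. In knockdown cells the counts of members called ran from 1 without 1-day knockdown 3, where 1.26% of all kept probe sets were called, to 12, of which 11 rose, without 1-day knockdown 1, where 28.6% were called.

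The POU factors and Rorb did not pass with any kept probe set. Pou3f3 1435197_at differed by 0.58 ± 0.20 in knockdown cells (adjusted p = 0.118) and 0.49 ± 0.20 in control cells (adjusted p = 0.253), with no overlap between the times. Pou3f2 1457734_at differed by 0.15 ± 0.29 in knockdown cells and 0.45 ± 0.29 in control cells, with overlap. A dim Pou3f2 probe set, 1450831_at, read 8.07, 8.92 and 8.50 in knockdown cells and 8.88, 8.90 and 8.46 in control cells at 5 days, and 7.58, 5.34 and 5.33 in knockdown cells and 7.10, 5.65 and 7.85 in control cells at 1 day. Its change of 2.42 ± 0.66 in knockdown cells (adjusted p = 0.0585) and 1.88 ± 0.66 in control cells (adjusted p = 0.167) did not pass, and its 3 lowest values, 5.33 to 5.65, were the 1-day arrays of the strong hybridisation set.

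Rorb differed by probe set. Its brightest, 1425162_at, read 7.74, 8.46 and 8.53 in knockdown cells and 8.48, 8.04 and 7.79 in control cells at 5 days. At 1 day it read 7.38, 9.39 and 9.45 in knockdown cells and 7.51, 9.18 and 8.39 in control cells, with the strong hybridisation set at 9.18 to 9.45 and the weak set at 7.38 to 8.39. Its change was -0.50 ± 0.58 in knockdown cells and -0.26 ± 0.58 in control cells. In the fit without the filter the dim probe set 1439862_at rose by 2.79 ± 0.31 in knockdown cells (adjusted p = 0.000878) and 2.13 ± 0.31 in control cells (adjusted p = 0.00518). In that fit 7 of the 27 member probe sets rose in knockdown cells, against 3.67% of all 45037, and 6 in control cells, against 2.05%. Beside those already named, it called Mef2c 1424852_at (adjusted p = 0.0453) and 1421028_a_at (adjusted p = 0.0431) in control cells. The 1-day values of Rorb 1439862_at, between 4.66 and 5.64, were among the dim readings where the added 16 shrinks a change.

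**Figure D3:**
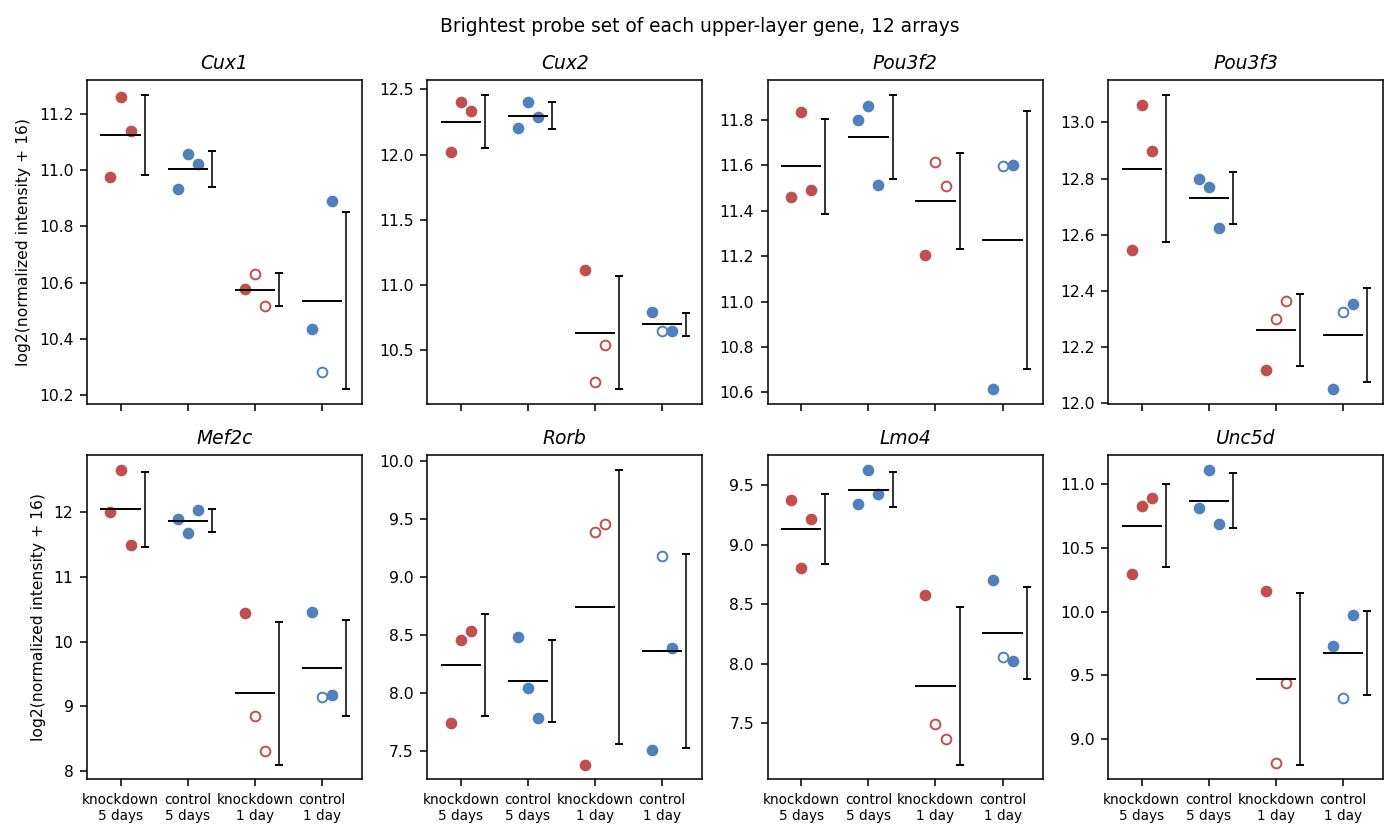
Log2(normalized intensity + 16) of the brightest probe set of each of 8 upper-layer genes on the 12 arrays, by group (horizontal axis). Points are arrays, open points the 1-day arrays with strong hybridisation controls, horizontal lines group means and error bars the SD (n = 3). For all of these genes but Pou3f2 and Rorb, every 5-day array lay above every 1-day array.

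Across the 4 groups, the plot of the brightest probe sets by array shows the same split by time for 6 of the 8 genes. Cux1, Cux2, Pou3f3, Mef2c, Lmo4 and Unc5d had both 5-day means above both 1-day means, with no array of the lower 5-day group overlapping the higher 1-day group. Within each time the knockdown and control groups overlapped for these genes, and which of them had the higher mean differed between genes. In each cell group, 6 of 8 genes had every 5-day array above every 1-day array, against 18.3% of all 12263 genes, taken by their brightest kept probe set, in knockdown cells and 20.1% in control cells.

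The 1-day arrays were also compared by hybridisation set, a split that the control probe sets define. Of the 24 member probe sets, 13 had no overlap between the sets, 6 higher and 7 lower in the strong set, against 75.2% of all kept probe sets. With only strong 1-day arrays, 13 members rose and 3 fell in knockdown cells and 10 rose and 1 fell in control cells, where 1 control array was left. All kept probe sets then gave 45.9% called in knockdown cells (7366 higher, 5049 lower) and 25.0% in control cells (4194 higher, 2559 lower). With only weak ones, 0 moved in knockdown cells, where 1 array was left, and 6 rose in control cells, against 0.803% of all kept probe sets called in knockdown cells and 4.43% in control cells. The plot by hybridisation controls shows the range of each probe set.

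**Figure D4:**
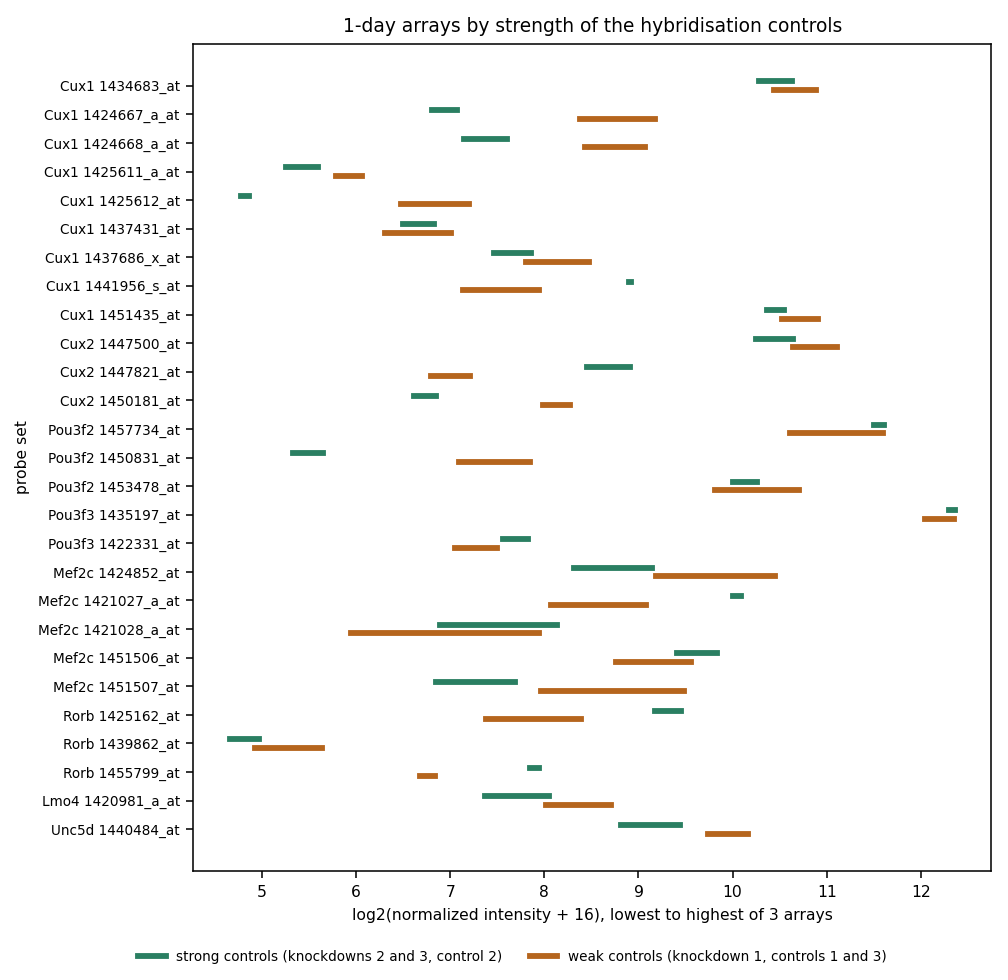
Lowest to highest log2(normalized intensity + 16) of the 27 upper-layer probe sets (rows) in the 3 strong and the 3 weak 1-day arrays. Bars that do not overlap, such as 8.46 to 8.91 against 6.80 to 7.21 for Cux2 1447821_at, differ between sets that mix knockdown and control cells.

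Other genes of cortical layers and progenitors place these changes. Each gene was taken by its brightest kept probe set, and the lists were chosen with earlier results of these data known. Of 20 other upper-layer and callosal genes, 17 were measured, with a median log2 change between the times of 0.45 in knockdown cells and 0.58 in control cells, and 1 rose in knockdown cells, Dkk3, a secreted modulator of Wnt signalling (1.63 ± 0.35, adjusted p = 0.0285). Its change in control cells, 1.41 ± 0.35, did not pass (adjusted p = 0.0603). The 8 upper-layer genes followed here had a median of 0.89 in knockdown cells, where 3 rose, and 0.84 in control cells, where 1 rose. All 12263 genes had a median of 0.21 in knockdown cells, where 7.14% were called, and 0.06 in control cells, where 3.78% were called.

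Deep-layer and progenitor genes had medians below 0. Of 12 deep-layer genes, 11 were measured, with medians of -0.16 in knockdown cells and -0.40 in control cells, and Fezf2, the selector factor of subcortical projection neurons, fell in knockdown cells (-2.15 ± 0.55, adjusted p = 0.0480) and in control cells (-2.35 ± 0.55, adjusted p = 0.0476). Positive changes were found for 5 of the 11 in knockdown cells and 3 in control cells, none past the threshold. Ldb2, a cofactor of LIM domain proteins, had every 5-day array above every 1-day array of the same cell group, at 1.59 ± 0.44 in knockdown cells (adjusted p = 0.0610) and 0.98 ± 0.44 in control cells (adjusted p = 0.289). So did Tbr1, a factor of layer VI, at 0.58 ± 0.26 in knockdown cells (adjusted p = 0.193) and 0.79 ± 0.26 in control cells (adjusted p = 0.141). Of 10 intermediate progenitor genes, 9 were measured, with medians of -1.59 in knockdown cells and -1.16 in control cells, and the same 4 fell in both cell groups. Neurog2, a proneural factor, fell by 2.52 ± 0.23 in knockdown cells and by 2.04 ± 0.23 in control cells, and Eomes, the defining factor of intermediate progenitors, fell by 2.37 ± 0.26 in knockdown cells and by 1.69 ± 0.26 in control cells. The others were Mfap4 and Neurod4. Between knockdown and control cells, 0 genes of any of these lists passed at 5 days or 1 day. These counts describe the lists and do not set them apart from other genes.

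**Figure D5:**
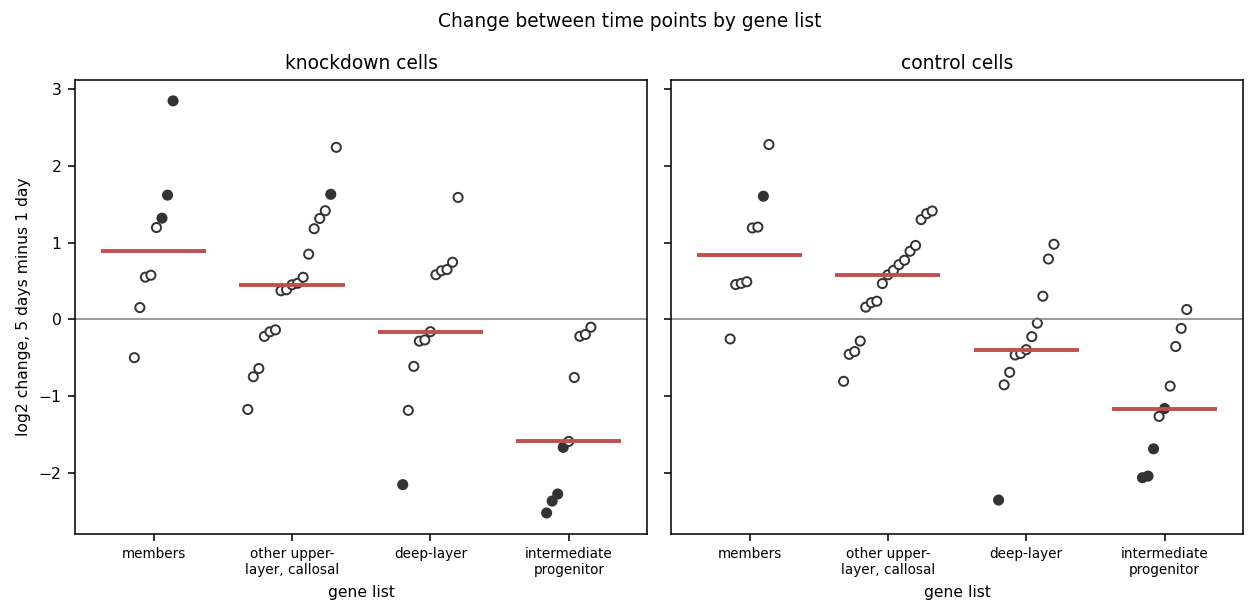
Log2 change, 5 days minus 1 day, for 4 gene lists, each gene by its brightest kept probe set, in knockdown cells (left) and control cells (right). Filled points passed the adjusted threshold and red lines are list medians, which for the 8 upper-layer genes were 0.89 in knockdown cells and 0.84 in control cells.

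Over the 12 arrays the brightest probe sets of the members correlated with each other to very different degrees. Pearson's r was highest for Unc5d with Cux2 and for Mef2c with Cux2, 0.94 each, and lowest for Rorb with Lmo4, -0.68. Pou3f2 and Pou3f3 had an r of 0.70, and Cux1 and Cux2 0.84. The genes most like Cux2 were Lsamp, a neural adhesion molecule (r = 0.99), Dusp11 and Osbpl6, and those most like Mef2c were Met, a receptor tyrosine kinase (0.99), Reps2 and Plekha1. Pou3f3 was closest to Pura (0.98), Pou3f2 to Nnt (0.90), Cux1 to Scp2 (0.96), Unc5d to Fundc1 (0.98), Lmo4 to Nol7 (0.98) and Rorb to Pex6 (0.99). These coefficients carry the step between the times and the hybridisation sets, which all probe sets of an array share, and are given as a description.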

How the data were processed

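Arrays were Affymetrix Mouse430_2, labelled by a 3′ IVT Express kit per the labels' protocols. The deposited table held linear intensity values for 45101 probe sets; the sources used here do not say how the authors summarised, background-corrected or scaled them. Scanner, station and chip lot came from the instrument files. After removal of 64 control probe sets, intensities were quantile normalized, 16 was added and log2 taken, and the upper 60% by mean over the 12 arrays (27022 probe sets) were kept. All 12 arrays were fitted together as 4 groups with limma 3.58.1 in R 4.3.3 (8 residual degrees of freedom), with Benjamini-Hochberg adjustment over all kept probe sets and a threshold of 0.05; the code was tested on simulated data. Members below the filter were read from the fit without it. Precision is limited by 3 arrays a group. The members and lists were chosen with earlier results of these data known. Named were all member probe sets, Zfp335, up to 4 genes per list by size of change, and the closest genes by correlation. The annotation gave 34958 probe sets 1 gene, 932 several and 9211 none. Same-numbered arrays of knockdown and control did not deviate together throughout (correlations 0.92, 0.90 and -0.42 at 1 day, -0.13, -0.016 and 0.096 at 5 days), so the numbers were not taken as pairs. Alternatives covered scaling, filter, pseudocount, array weights, scanner, hybridisation set, replicate block, gene means and leaving out arrays. Fits restricted to 1 hybridisation set were added after the data were seen.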

Additional observations from a re-analysis of the deposited data

How the results depend on the processing

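Between knockdown and control cells, 0 members and 0 probe sets passed under every alternative but array weights, whose estimate did not converge: 8076 higher and 12953 lower of 21029 called at 1 day, with 20 members (8 higher, 12 lower), and 10712 called (9 members) for the difference of the effects. Array weights also turned directions, among them Mef2c 1421028_a_at to 0.81, Cux1 1434683_at to -0.31 and Pou3f2 1453478_at to -0.59 at 1 day. Between times in control cells Cux1 1441956_s_at turned to 0.40. The cause was not tested.

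Between the times, counts moved far more (as reported, 1616 probe sets and 6 members in knockdown cells and 886 and 3 in control cells). In knockdown cells they were 13442 and 15 with array weights, 10322 and 18 with median scaling, 13508 and 19 without normalization, 6327 and 14 with the hybridisation set as a block, 3026 and 7 without the filter, 918 genes and 2 of 8 with gene means, 146 and 0 for those arrays alone, 44 and 0 with the scanner as a block (which rests on 5-day control 1), 12415 and 16 with strong 1-day arrays only and 217 and 0 with weak ones only. Control cells gave, for the settings as listed, 16962 and 18, 9254 and 19, 13122 and 20, 6213 and 12, 1702 and 6, 528 and 1, 380 and 2, 279 and 2, 6753 and 11, and 1197 and 6. With a pseudocount of 64, 7 of 24 members passed in knockdown cells (6.78% of all probe sets) and 5 in control cells (3.87%). With the upper 40% by mean, 8 of 22 members passed in knockdown cells (10.8% of all) and 5 in control cells (5.92%). Leaving out 1 array gave 341 to 7727 probe sets and 1 to 12 members in knockdown cells, and 247 to 614 and 2 to 4 in control cells. The replicate number as a block, which the check of pairing does not support, gave 4215 probe sets and 11 members in knockdown cells and 1712 and 6 in control cells, and 0 between knockdown and control. In 19 of 464 recomputed member values in knockdown cells and 24 of 464 in control cells the sign changed, and between knockdown and control cells in 41 of 416 at 5 days and 66 of 464 at 1 day. With the scanner as a block, knockdown minus control at 5 days was 0.05 for Cux2 1447500_at and 0.14 for Mef2c 1424852_at. Chip lot cannot be told apart from time, and dim probe sets limit Rorb and Cux1.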

Other observations

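The probe set shared by Pou3f3 and 2900092D14Rik (1429857_at) read log2 12.21, 11.71 and 12.25 in knockdown cells and 12.35, 12.36 and 12.02 in control cells at 5 days. It read 11.79, 12.06 and 11.86 in knockdown cells and 11.53, 11.81 and 11.85 in control cells at 1 day. Its knockdown minus control change was -0.18 ± 0.22 at 5 days and 0.18 ± 0.22 at 1 day (SE), with overlap at both times, and its change between the times was 0.15 ± 0.22 in knockdown cells and 0.51 ± 0.22 in control cells, none past the threshold by limma (adjusted p from 0.269 to 1.00).

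Markers of further cell types are given as summed normalized intensities. Pan-neuronal genes summed to 20270 to 22844 in knockdown cells and 20360 to 25160 in control cells at 5 days, and to 11271 to 24559 in knockdown cells and 13699 to 25393 in control cells at 1 day. Oligodendrocyte precursor genes summed to 2476 to 4851 in knockdown cells and 4036 to 4190 in control cells at 5 days, against 323 to 773 in knockdown cells and 314 to 560 in control cells at 1 day, with no overlap between the times. Radial glia genes summed to 24830 to 34214 in knockdown cells and 25057 to 28176 in control cells at 5 days, and to 19781 to 29843 in knockdown cells and 20100 to 28275 in control cells at 1 day. Such sums rest mostly on the brightest genes. Of the 8 radial glia genes, 3 lay higher and 5 lower at 5 days in each cell group. Their median log2 change was -0.43 in knockdown cells and -0.30 in control cells. In knockdown cells 1 rose and 1 fell past the threshold, against 7.14% of all genes called. In control cells 0 passed, against 3.78%.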
